A study of Mus musculus with 2 samples.

Results

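Mature neutrophils with Mmp8 and without Cxcl2 were examined in the inflamed spinal cord of C57BL/6 mice. All 4 mice had EAE (experimental autoimmune encephalomyelitis), in which T cells against myelin bring leukocytes into brain and spinal cord, and were taken at day 15 after induction. There were 2 untreated mice and 2 mice given an inhibitor. The sources used here name neither the inhibitor nor its dose, nor the ages of the mice. CD45+ cells, the leukocytes and microglia, were marked with 1 hashtag per mouse, pooled and sequenced as single cells in 1 run. The cells were chosen by their counts: S100a8 and S100a9 together at least 1% of the cell's counts, at least 1 count each of Retnlg and Mmp8, and 0 counts of Ltf, Cxcl2, Mki67, Top2a, Cd3d, Cd3e, Cd3g, Cd79a and P2ry12. The rule found 223 cells among 20504 cells with a single hashtag and at most 20% mitochondrial counts, or 1.09%. They came from untreated replicates 1 and 2 (42 and 12 cells) and inhibitor replicates 1 and 2 (128 and 41 cells).

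Neutrophils form their granules in order as they mature in the bone marrow. Primary granules come first, then secondary granules with Ltf (lactoferrin), Camp (cathelicidin), Ngp and Lcn2 (lipocalin-2), and then gelatinase granules with Mmp9. Mmp8 and Mmp9 encode metalloproteinases that cut collagens and gelatin. A mature cell carries Cxcr2, the receptor for chemokines such as CXCL2, and in inflamed tissue it can make CXCL2 and IL-1 beta itself. The 223 cells were therefore set beside 2 groups of neutrophils of the same mice, with the same limits on S100a8 and S100a9 and the same lineage and cycling genes at 0. The 1609 Ltf-positive cells had at least 1 count of Ltf, and the 2554 Cxcl2-positive cells had at least 1 count of Cxcl2 and none of Ltf. The Ltf-positive gate set no limit on Cxcl2, and 1103 of its 1609 cells held it. That gate also required neither Retnlg nor Mmp8, and 1466 of its cells held Mmp8. The mature cells therefore differ from it by the choice on Cxcl2, Retnlg and Mmp8 as well as on Ltf.

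Summed counts of the mature neutrophils were 261229 and 68403 in the untreated and 757852 and 263084 in the treated mice. The median cell held 5368 counts and 909 genes, against 10868 counts in the Ltf-positive and 6678 in the Cxcl2-positive cells. Untreated replicate 2 gave the fewest cells, so every value of the untreated group leaned on a small sum. Levels are given as CPM, a gene's count per 1000000 counts of all genes, in the summed cells of 1 mouse and gate.

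The rule's own genes are described here without a test. Mmp8 is a protein-coding gene at chr9:7558456-7568485 (+ strand), Retnlg lies at chr16:48872621-48874496 (+), Ltf at chr9:111019271-111042767 (+) and Cxcl2 at chr5:90903871-90905938 (+), all in GRCm38. Mmp8 reached 5868 and 6213 CPM in the untreated and 5656 and 6074 CPM in the treated mice, and its count per cell ran from 6 to 158 with a median of 30. Retnlg, a resistin-like protein of neutrophils, reached 52728 and 50890 CPM without and 54892 and 51569 CPM with the inhibitor. Both genes were thus level across the mice. No nonzero Mmp8 count in the matrix lay below 6, and none of Cxcl2 lay below 7 or of Ltf below 8. A 0 of these genes can therefore stand for a low count set to 0 before deposit, and the cells are best read as listed at 0 of Cxcl2.

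Near the thresholds, 5 of the 223 cells held the lowest Mmp8 count of 6. A further 21 cells met the rule except that Mmp8 was at 0, and these had a median of 3215 counts, Il1b at 3245 CPM and Ngp at 2168 CPM. In the 223 cells Il1b stood at 399 CPM and Ngp at 5418 CPM when all were summed. Only 3 neutrophils without Ltf, Cxcl2 and the lineage and cycling genes had Retnlg at 0, whatever their Mmp8. A further 5 cells failed on S100a8 and S100a9 alone. The lineage and cycling genes removed 90 otherwise matching cells, with a median of 6916.5 counts, more than in the cells kept. Among Ltf-negative neutrophils without the lineage and cycling genes, 8.82% (247 of 2801) had Cxcl2 at 0. Among those with Retnlg and Mmp8, that share was 17.3% of cells under 4000 counts, 12.1% from 4000 to 6000, 9.01% from 6000 to 9000 and 3.35% from 9000 upward, so the choice favoured cells with few counts.

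The label was checked on 2 markers that the rule did not use. Mmp9, also called gelatinase B, had a count in 221 of 223 cells (99.1%), and Cxcr2 in 214 (96.0%). In T cells, which should lack both and had a median of 10712 counts, the shares were 24.3% and 22.6%. Mmp9 stood at 3882 and 3786 CPM in the untreated and 4271 and 4223 CPM in the treated mice, and Cxcr2 at 1841 and 2076 CPM against 1990 and 1787 CPM. Both markers were thus present in every mouse, but they did not set these cells apart from other neutrophils. Mmp9 had a count in 98.2% of Ltf-positive and 98.7% of Cxcl2-positive cells, and Cxcr2 in 90.9% and 97.7%. Cd101, another gene of the maturity list, had a count in 8.97% of mature, 4.35% of Ltf-positive, 17.0% of Cxcl2-positive and 4.91% of T cells. Of 6 primary granule genes of precursors, Mpo, Elane, Ctsg and Ms4a3 were listed at 0 in all 223 cells, where low counts may be hidden, while Prtn3 had 10 counts in 8 cells and Prss57 9 counts in 2 cells.

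The share of mature neutrophils among all kept cells was 0.889% (0.659 to 1.20, 95% Wilson interval) in untreated replicate 1 and 0.242% (0.139 to 0.423) in untreated replicate 2. It was 2.26% (1.91 to 2.69) in inhibitor replicate 1 and 0.793% (0.585 to 1.07) in inhibitor replicate 2. The groups overlapped, because the lower treated mouse lay below the higher untreated one. Means were 0.566% ± 0.458 (SD, n = 2) and 1.53% ± 1.04 (two-sided exact permutation test, p = 0.667). Since 2 against 2 mice allow no p below 1 in 3, this test could not have shown a difference. Of 7711 kept cells past the limit on S100a8 and S100a9, 3301 held a lineage or cycling gene and 4410 did not. Among these 4410 neutrophils the share was 6.43% and 2.45% in untreated and 6.00% and 3.62% in treated mice. Means were 4.44% ± 2.82 and 4.81% ± 1.69 (exact permutation p = 1). The intervals cover counting error only.

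**Figure D1:**
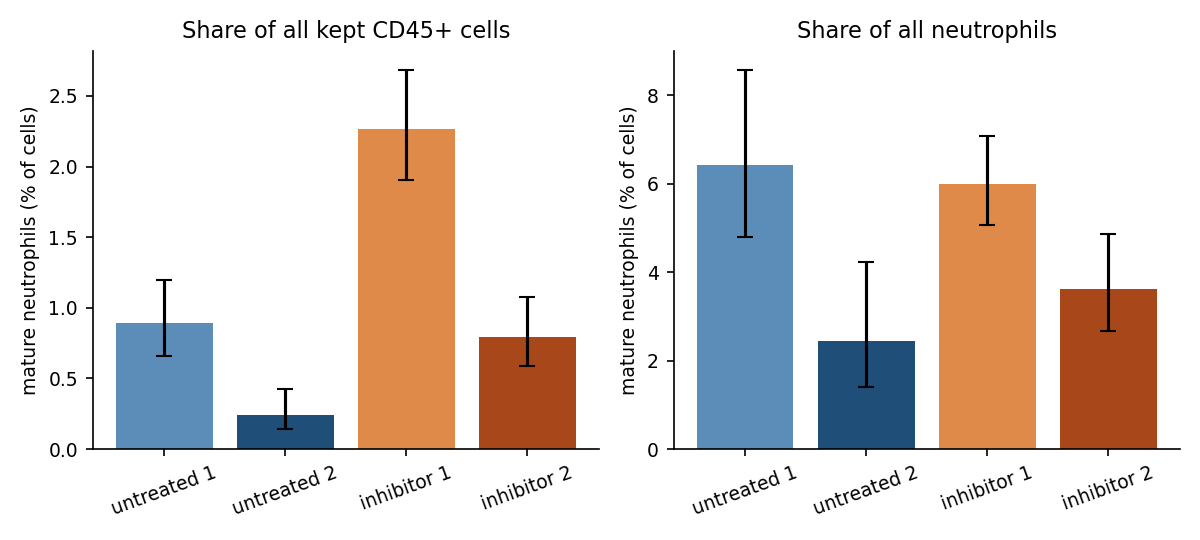
Bars show the percent of cells that were mature neutrophils without Cxcl2 in each of the 4 mice, with 95% Wilson intervals. The left panel is of all kept CD45+ cells, and the right is of neutrophils without the lineage and cycling genes. Inhibitor replicate 1 stands highest on the left at 2.26%, while on the right untreated replicate 1 (6.43%) and inhibitor replicate 1 (6.00%) lie close together.

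Against Ltf-positive neutrophils of the same mice, the mature cells had lower secondary granule transcripts and higher levels of several surface receptors. Ngp, a secondary granule protein, stood at 5742, 4327, 5232 and 5915 CPM in untreated replicates 1 and 2 and inhibitor replicates 1 and 2, against 29600, 32628, 35497 and 35851 CPM in Ltf-positive cells. The gates did not overlap, and the log2 fold was −2.83 ± 0.09 (SE, n = 4 mice; edgeR's quasi-likelihood test with the mouse as a block, adjusted p = 1.89e-233). Ngp also had a count in 75.9% of T cells (3879 of 5114), and the part of background in its levels in any gate was not tested. Lcn2, which binds bacterial siderophores, stood at 8973, 13391, 9398 and 10814 CPM against 17892 to 20976 CPM (log2 fold −1.10 ± 0.09). Camp had a count in only 12 of the 223 cells, with 536, 0, 301 and 547 CPM against 11807 to 15097 CPM. No nonzero count lay below 29 for Camp or below 23 for Lcn2, so low counts may be hidden. The mature cells also held fewer counts per cell. With cells of all gates thinned to the same number of counts, 50 genes were higher and 79 lower of 3839 tested. Of these calls, 113 were shared with the main test. Ngp and Camp kept their calls in 16 of 16 alternatives, thinning among them. The part of depth in the size of the folds was not tested.

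The test covered 7089 genes without those of the rule, of which 75 (1.06%) were higher and 105 (1.48%) lower in the mature cells at an adjusted p under 0.05. Of 13 tested secondary granule genes, 11 fell and none rose, with a median log2 fold of −1.09 against −0.23 over all genes. Chil3 (a chitinase-like protein), Cybb (the catalytic subunit of the NADPH oxidase), Olfm4, Itgb2l, Anxa1 (annexin A1), Ifitm6, Cd177 and Lyz2 (lysozyme) were the others that fell, with log2 folds from −5.04 for Chil3 to −0.69 for Lyz2. No nonzero count of Chil3 lay below 7. Chil1 (−0.03) and Wfdc21 (−0.41) did not pass. Since the Ltf-positive gate was drawn on a secondary granule gene, part of this direction is fixed by the choice of cells.

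In the NADPH oxidase list 3 of 7 tested genes fell, namely Cybb (−2.17 ± 0.17), Cyba, its membrane partner (−0.93 ± 0.19), and Hvcn1, a proton channel (−2.52 ± 0.78, counts in 5 cells). Rac2, a small GTPase of the complex (−0.11), did not pass. Cebpe, a transcription factor of granule formation, fell from 238 to 91.0 CPM on average (log2 fold −1.67 ± 0.33, adjusted p = 6.12e-05). Lta4h, which makes the chemoattractant leukotriene B4, and Ltb4r1, the receptor for it, fell by 2.11 and 1.81 on the log2 scale. Other genes with large falls were Zmpste24, Trp53inp2, Tmem256, Lbp, Abca13, Pgls, Lrmp and Olfml2b, each at a mean of under 20 CPM in the mature cells, and AA467197, at 96.7 CPM.

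A few surface receptors were higher. Csf3r, the receptor for G-CSF, stood at 942, 1243, 944 and 878 CPM in the 4 mice against 340 to 381 CPM in Ltf-positive cells (log2 fold 1.31 ± 0.19, adjusted p = 2.54e-09). In the list of 27 tested receptors and adhesion genes 4 rose, among them Csf3r, Selplg (a ligand of selectins, 0.98 ± 0.17) and Clec4d (a C-type lectin, 1.83 ± 0.23), and 1 fell, Ltb4r1. The median was 0.19. Of 8 tested gelatinase granule and maturity genes 3 rose, Cxcr2 (0.66 ± 0.15), Adam8 (0.60 ± 0.18) and Slpi, a protease inhibitor (0.49 ± 0.14), while Mmp9 did not pass (0.04 ± 0.12).

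Genes with the largest rises at 50 CPM or more were Ccl6, Clec7a, Sirpb1c, Jaml, Tspan13, Pla2g7, Wfdc17 and Sirpb1b, beside 4 haemoglobin genes. Ccl6, a chemokine of myeloid cells, stood at 1845, 1272, 1609 and 2467 CPM against 223 to 340 CPM (log2 fold 2.48 ± 0.18). Clec7a, the receptor dectin-1 for fungal glucans, stood at 329, 219, 290 and 240 CPM against 31.9 to 61.2 CPM (2.47 ± 0.34). Ifitm1 rose (1.98 ± 0.17) while Ifitm6 fell (−1.02 ± 0.11), and Ifitm2 (0.37) and Ifitm3 (0.15) did not pass. In the stefin A family of cysteine protease inhibitors Cstdc4 and Stfa2l1 rose among 6 tested genes, and among 20 tested interferon-stimulated genes only Oasl2 did (1.54 ± 0.38).

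All haemoglobin counts of the mature cells came from 2 cells, 1 of inhibitor replicate 1 with 9270 counts and 1 of inhibitor replicate 2 with 305. Without cells holding haemoglobin, C1qa or C1qc, a setting added after the data were seen, 47 genes were higher and 114 lower. With a mouse left out, the counts lay between 24 and 97 higher and between 46 and 70 lower, with 24 and 46 without inhibitor replicate 1, 30 and 47 without inhibitor replicate 2, and 66 lower genes without untreated replicate 1.

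**Figure D2:**
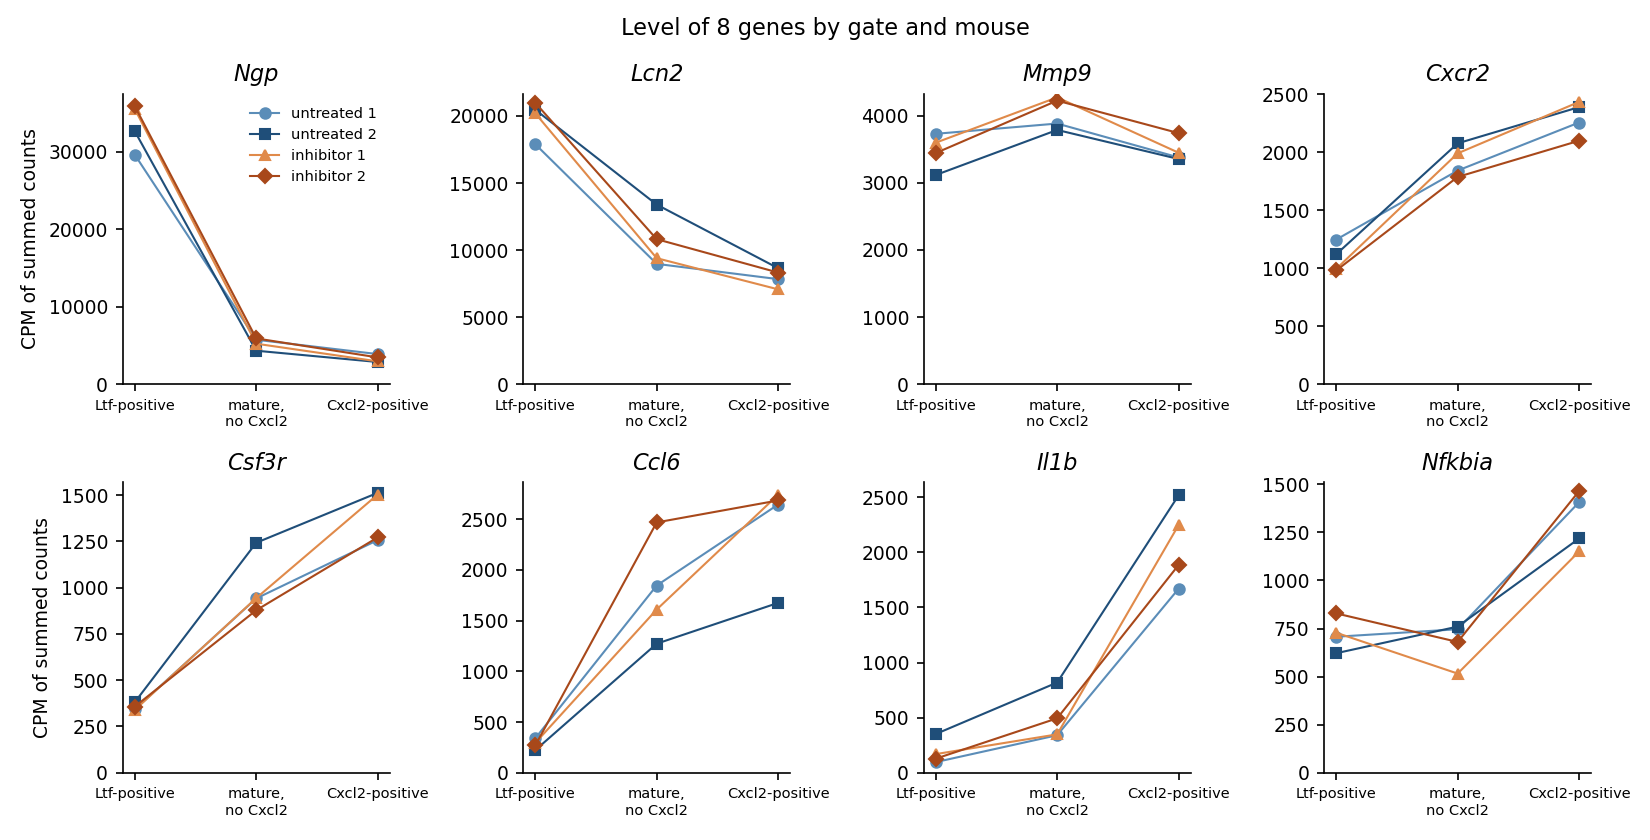
Each panel shows 1 gene in CPM of summed counts (linear axis from 0), with 1 line per mouse across Ltf-positive, mature and Cxcl2-positive neutrophils. In all 4 mice Ngp and Lcn2 step down from left to right while Csf3r, Ccl6 and Il1b step up, and the mature cells lie between the other gates for these genes.

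Against Cxcl2-positive neutrophils, the mature cells had lower levels of Il1b and 5 other inflammatory genes. Since this gate was drawn on Cxcl2, itself an inflammatory gene, part of the direction is fixed by the choice of cells. The gate also did not require Retnlg or Mmp8, and 2206 of its 2554 cells held Mmp8. Il1b, which encodes the cytokine IL-1 beta, stood at 341, 819, 348 and 494 CPM in the 4 mice, against 1669, 2517, 2247 and 1885 CPM in Cxcl2-positive cells. Its highest value in the mature cells, in untreated replicate 2, was below the lowest of the other gate, and the log2 fold was −2.21 ± 0.17 (edgeR, adjusted p = 3.12e-36). Il1b was nonetheless higher in the mature than in Ltf-positive cells, at 96.7 to 352 CPM in the latter (1.33 ± 0.24, adjusted p = 5.18e-06). Ltf-positive cells were not chosen by Cxcl2, and 1103 of them held it. A count of Il1b was present in 29.1% of mature, 62.1% of Cxcl2-positive and 13.5% of T cells.

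Of 7034 tested genes 3 (0.0426%) were higher and 45 (0.64%) lower in the mature cells. In the inflammatory list 6 of 20 tested genes fell and none rose, with a median log2 fold of −0.98 against −0.19 over all genes. Besides Il1b these were Ptgs2, the inducible cyclooxygenase (−2.41 ± 0.48), Egr1, an immediate early transcription factor (−1.73 ± 0.28), Nfkbiz (−1.39 ± 0.25), Nfkbia (−1.03 ± 0.17) and Zfp36, which destabilises cytokine mRNAs (−0.63 ± 0.16). Nfkbia and Nfkbiz encode regulators of NF-kappaB, the transcription factor that drives many of these genes. Nfkbia stood at 746, 760, 516 and 680 CPM against 1151 to 1465 CPM, with no overlap. Ccl3 (−0.92, adjusted p = 0.089) and Acod1 (−0.94, 0.246) did not pass.

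Ccrl2, a chemerin-binding receptor, stood at 0, 43.9, 30.4 and 30.4 CPM against 120 to 215 CPM (−2.76 ± 0.45). Other genes with large falls were Ogfr, Steap4 and Gm5150. Their calls were less stable, kept in 9, 4 and 9 of 16 alternatives, against 16 of 16 for Ccrl2. Of 28 tested receptors Cd14, the co-receptor for lipopolysaccharide (−0.85 ± 0.24), and Il1r2, the decoy receptor for IL-1 (−0.70 ± 0.19), fell, and Csf3r did not pass (−0.54 ± 0.16, adjusted p = 0.1). In the stress and immediate early list 3 of 8 tested genes fell, Egr1, Fos (−0.56 ± 0.14) and Dusp1 (−0.87 ± 0.16). Wfdc17 (−1.19 ± 0.15), Ifitm1 (−0.89 ± 0.13), Clec7a (−0.94 ± 0.23) and Ccl6 (−0.51 ± 0.14), all higher in mature than in Ltf-positive cells, were lower than in Cxcl2-positive ones.

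The 3 genes that were higher than in Cxcl2-positive cells were secondary granule genes. Ngp stood at 4327 to 5915 CPM against 2871 to 3892 CPM (0.62 ± 0.11, adjusted p = 8.08e-06), Lcn2 at 8973 to 13391 against 7075 to 8651 CPM (0.34 ± 0.09, 0.0276) and Camp at 536, 0, 301 and 547 against 39.8 to 167 CPM (1.55 ± 0.29, 2.11e-05). Counts of Camp under 29 and of Lcn2 under 23 may be hidden in both gates. Of 13 tested genes of that list the median was 0.27, and Cd177 (0.43) and Anxa1 (0.31) did not pass. With DESeq2 in place of edgeR, without a block for the mouse or without either treated mouse no gene was called higher, and without untreated replicate 1 there was 1.

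Transcripts of the mitochondrial genome, which encodes subunits of the respiratory chain, were lower in the tests of both gates. Of 12 tested protein genes 11 fell against Cxcl2-positive cells (median −1.05) and 8 against Ltf-positive ones (median −0.56). The gene mt-Nd1, a complex I subunit, stood at 1409, 936, 375 and 483 CPM, against 2119, 2957, 1312 and 1817 CPM in Cxcl2-positive cells of the same mice, so that it was lower in each mouse. Together these genes made up 1.93% and 1.56% of counts in untreated and 0.884% and 1.04% in treated mice. In Cxcl2-positive cells they made up 2.46%, 3.42%, 1.69% and 2.14% in the same order, above the mature cells of each mouse. In Ltf-positive cells they made up 1.54%, 2.55%, 1.39% and 1.52%, so that untreated replicate 1 went the other way, with 1.93% in its mature cells. Several of the called gene models (Gm28437, Gm28661, Gm10925, Gm28439, Gm29216 and Gm10222) may share reads with mitochondrial genes, and their values are uncertain. At a limit of 10% mitochondrial counts 24 genes were lower, with DESeq2 15, and without a block for the mouse 5 (Il1b, Nfkbia, Ptgs2, Dusp1 and Ccrl2). Without untreated replicate 2 there were 18, and without untreated replicate 1 or inhibitor replicate 2 28 and 26.

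**Figure D3:**
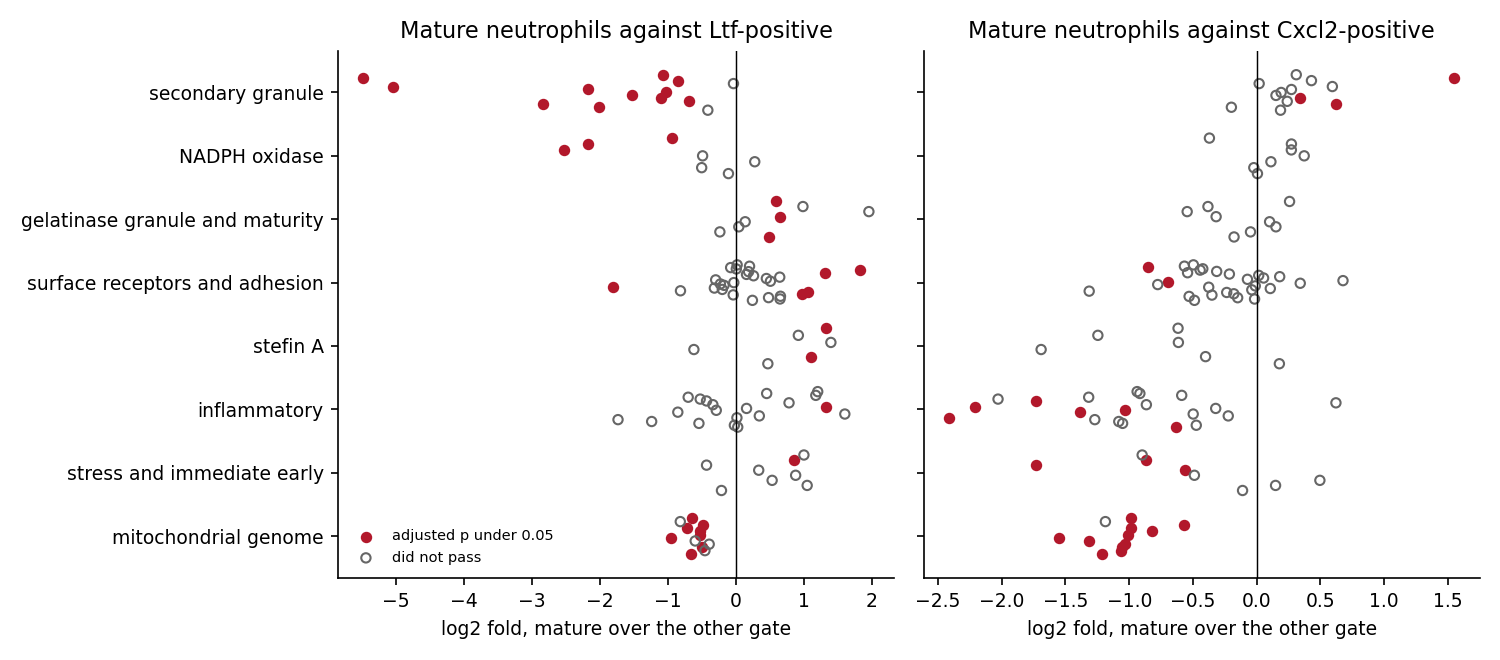
Each point is 1 gene of a list, placed by its log2 fold in mature neutrophils over Ltf-positive (left) or Cxcl2-positive (right) cells of the same 4 mice, filled red at an adjusted p under 0.05. On the left 11 of 13 secondary granule genes are red and below 0, and on the right 6 of 20 inflammatory and 11 of 12 mitochondrial genes are.

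The mature cells were then set beside Ltf-negative cells with Retnlg and Mmp8 split by their Cxcl2 count, at 7 to 35 (743 cells), 36 to 83 (729 cells) and 84 to 559 (731 cells). This is a description, since Cxcl2 chose the cells. Il1b was 399 CPM in the mature cells and 758, 1206 and 2624 CPM in the 3 rising classes. Nfkbia was 605 CPM, then 630, 1046 and 1677 CPM, with the mature cells next to the lowest class when all mice were summed. In untreated replicate 2 Nfkbia was 760 CPM at 0 of Cxcl2, above the lower (486 CPM) and middle (597 CPM) classes. Ngp was 5418 CPM, then 4365, 3955 and 2527 CPM, and Csf3r 946, then 1102, 1191 and 1478 CPM. In untreated replicate 2, with 12 mature cells, Il1b was as high at 0 (819 CPM) as in the lowest class (811 CPM). Median counts per cell rose over the classes as well, from 5368 to 5700, 6521 and 9311, and the part of depth in these levels was not tested.

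**Figure D4:**
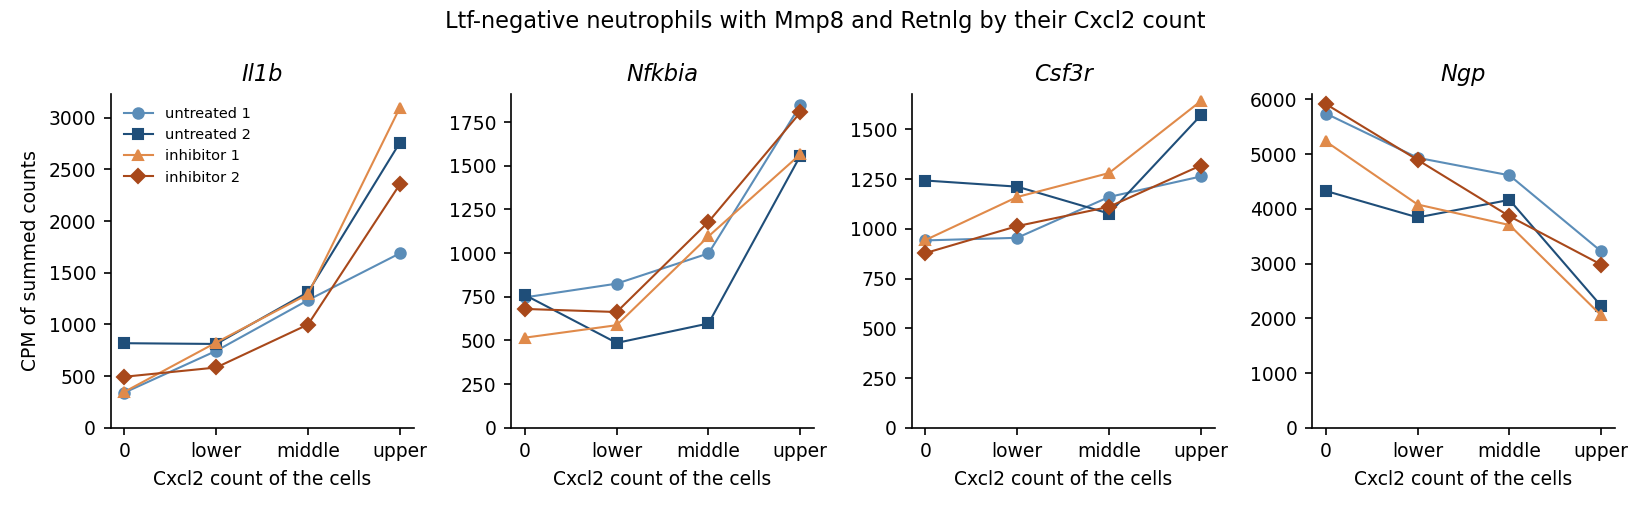
Lines show the CPM of 4 genes in each of the 4 mice for Ltf-negative neutrophils with Mmp8 and Retnlg, from those listed at 0 of Cxcl2 to the class with the highest Cxcl2 counts. Il1b and Nfkbia are highest and Ngp lowest in the upper class of every mouse.

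Upstream sequence is shown for 3 genes that separate the gates: Cxcl2, the gene that set the mature cells apart, Nfkbia, which was lower in them than in Cxcl2-positive cells, and Ngp, which was higher. Each is the 250 bases before the RefSeq start (GRCm38.p6), at chr5:90903649-90903898 (+ strand), chr12:55492648-55492897 (− strand) and chr9:110419558-110419807 (+ strand). Capitals mark matches on either strand to GGANTTTCC, a form of the motif of NF-kappaB, in Cxcl2 and Nfkbia, and to TTGCNNAA, a form of the motif of C/EBP factors, in Ngp.
Cxcl2: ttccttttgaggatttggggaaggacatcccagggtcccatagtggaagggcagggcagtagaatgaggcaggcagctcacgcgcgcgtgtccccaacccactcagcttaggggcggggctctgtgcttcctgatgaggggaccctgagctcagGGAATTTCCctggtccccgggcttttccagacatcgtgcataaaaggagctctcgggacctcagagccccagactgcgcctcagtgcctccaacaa
Nfkbia: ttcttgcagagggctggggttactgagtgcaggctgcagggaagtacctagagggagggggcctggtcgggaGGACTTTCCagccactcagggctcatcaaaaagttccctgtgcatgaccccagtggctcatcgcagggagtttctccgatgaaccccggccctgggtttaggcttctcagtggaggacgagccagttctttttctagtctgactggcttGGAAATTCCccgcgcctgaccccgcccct
Ngp: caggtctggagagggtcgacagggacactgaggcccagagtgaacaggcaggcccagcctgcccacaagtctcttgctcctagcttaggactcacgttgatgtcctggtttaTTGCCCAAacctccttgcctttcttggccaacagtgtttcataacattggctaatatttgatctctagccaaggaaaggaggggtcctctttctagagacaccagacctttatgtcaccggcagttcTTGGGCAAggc
The match in Cxcl2 began at -96 from the RefSeq start, those in Nfkbia at -178 and -29, and those in Ngp at -138 and -11. The gene starts in GENCODE, used for the other coordinates, lie inside the windows of Cxcl2 (90903871) and Ngp (110419747). The Ngp match at -11 lies past the GENCODE start. Over all 27025 promoters of that length, 1.05% held the first motif and 9.55% the second. Of 23 genes lower than in Cxcl2-positive cells with an entry, 2 held the first (Ccrl2 and Nfkbia, 8.70%) and 3 the second. Of 3 genes higher than in Cxcl2-positive cells, 0 held the first and 2 the second (Lcn2 and Ngp). Of 79 genes lower than in Ltf-positive cells, 1 held the first (Anxa1, 1.27%) and 16 the second (20.3%). Of 63 genes higher than in Ltf-positive cells, 0 held the first and 6 the second (9.52%). The same windows of Il1b (GGANTTTCC) and Camp (TTGCNNAA), which also differed between gates, held no match, and the 3 sequences above were chosen because they hold one. A match is a description of letters and says nothing of binding.

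Within the mature cells, granule and receptor transcripts varied from cell to cell. Ngp counts ran from 0 to 155 with a median of 21, and Il1b counts from 0 to 34 with a median of 0. Across the 223 cells Spearman's rho between Ngp and Lcn2 was 0.40, and it was −0.32 between Ngp and Csf3r and −0.29 between Ngp and Il1b. The sign of each held in all 4 mice, with Ngp and Csf3r at −0.35, −0.84, −0.20 and −0.49. Mmp8 and Retnlg, both used by the rule, had a rho of −0.01. The cells share 1 library and differ in depth, and these values are a description across cells.

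With the inhibitor, no gene passed in the mature neutrophils. Of 2920 tested genes edgeR called 0 (0%) and 104 fell under an unadjusted p of 0.05. DESeq2 called 5 (mt-Cytb, mt-Nd1, mt-Nd4, Cd74 and Hbb-bs). The neutrophil lists showed no call in either direction. Medians were 0.04 for 12 secondary granule genes and 0.08 for 26 receptors, against 0.05 over all genes. Ngp (0.16 ± 0.18), Lcn2 (−0.11 ± 0.16), Mmp9 (0.17 ± 0.16), Cxcr2 (−0.02 ± 0.20), Csf3r (−0.22 ± 0.26) and Il1b (−0.38 ± 0.43) had no p near the threshold (adjusted p = 0.997 for each).

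The smallest unadjusted p among known genes belonged to haemoglobin, mitochondrial and a few other transcripts. The gene mt-Cytb, a subunit of complex III, stood at 2802 and 1784 CPM without and at 859 and 1038 CPM with the inhibitor (log2 fold −1.27 ± 0.28, adjusted p = 0.419). The gene mt-Nd4 stood at 1742 and 1886 against 678 and 954 CPM, mt-Co3 at 2373 and 2251 against 1238 and 1368 CPM, and mt-Nd2 at 766 and 833 against 235 and 392 CPM. In each of these the treated mice lay below both untreated ones. All 12 tested mitochondrial genes had a negative log2 fold (median −1.04), and 8 had an unadjusted p under 0.05. Without cells holding haemoglobin, C1qa or C1qc their log2 folds were smaller in size, at −0.96 for mt-Cytb, −1.04 for mt-Nd1, −0.74 for mt-Nd4 and −0.32 for mt-Nd5, and 5 had an unadjusted p under 0.05 (mt-Co3, mt-Cytb, mt-Nd1, mt-Nd2 and mt-Nd4). In the Cxcl2-positive cells the summed share of these genes was 2.46% and 3.42% without and 1.69% and 2.14% with the inhibitor. The test of whether the effect differed between the gates called none of the mitochondrial genes.

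Psenen, a subunit of gamma-secretase, stood at 45.9 and 73.1 against 212 and 281 CPM (2.16 ± 0.59, adjusted p = 0.904). Def6 stood at 19.1 and 14.6 against 168 and 118 CPM, Adam19 at 26.8 and 29.2 against 215 and 122 CPM, Adprh at 19.1 and 0 against 142 and 156 CPM, and Ddx60 at 7.66 and 0 against 76.5 and 114 CPM. Ndufs8, a subunit of respiratory complex I, had no count in the untreated mice and 71.2 and 118 CPM in the treated ones, at least 9.15-fold higher by a floor of 3 counts over the untreated group. Unc45a, likewise at 0 without the inhibitor, was at least 6.78-fold higher. None of these passed, and 1 count in untreated replicate 2 alone equals 14.6 CPM.

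Cd74, the invariant chain of MHC class II, stood at 410 and 336 against 93.7 and 64.6 CPM (−2.20 ± 0.47, adjusted p = 0.419), Ctss, a lysosomal protease, at 276 and 175 against 58.1 and 53.2 CPM, and Cd81 at 88.0 and 117 against 9.24 and 7.60 CPM. C1qa, a complement gene of microglia and macrophages, stood at 260 CPM or more in both untreated mice against 7.92 and 38.0 CPM, in 5 cells in all. The 11 microglia markers summed to 1160 and 629 CPM without and 80.5 and 220.5 CPM with the inhibitor, with P2ry12 (set to 0 by the rule) and Fcrls at 0. Without cells holding haemoglobin, C1qa or C1qc, Cd74 had a log2 fold of 0.64 and Ctss one of −0.55. The haemoglobin genes Hbb-bs, Hba-a1, Hba-a2 and Hbb-bt were listed at 0 in the untreated mice, and their counts in the treated ones came from the 2 cells named above. The 12 T cell markers summed to 203 and 190 against 66.0 and 98.8 CPM, 8 B lineage markers to 68.9 and 190 against 54.1 and 83.6 CPM, and 9 dendritic cell markers to 348 and 87.7 against 26.4 and 106 CPM. Monocyte and macrophage markers (8 genes) summed to 2082 and 3260 against 1911 and 2494 CPM, and Ly6c2, which is among them, was also present in Ltf-positive and Cxcl2-positive neutrophils at means of 2508 and 1560 CPM. Of the lists not yet given, 5 NK markers, 6 of eosinophils, basophils and mast cells, 4 of platelets and 6 of neutrophil progenitors each summed to at most 30.4 CPM in any mouse.

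Without untreated replicate 1, which leaves the 12 cells of untreated replicate 2 alone in their group and takes that lone mouse to vary like the treated ones, 222 genes were called. Without untreated replicate 2 there were 35, without inhibitor replicate 1 there were 4 and without inhibitor replicate 2 there were 6.

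The effect of the inhibitor in mature neutrophils was also tested against its effect in the other gates. Against Cxcl2-positive cells 5 of 8388 tested genes (0.0596%) differed, the 4 haemoglobin genes and Cstdc4, and against Ltf-positive cells 1 of 8503 (0.0118%), Cstdc4. Cstdc4, a stefin A family member, stood at 792 and 14.6 CPM in mature cells without and at 554 and 1444 CPM in those with the inhibitor, from 12, 1, 28 and 8 cells. It was low in untreated replicate 2 alone, and the groups overlapped. In inhibitor replicate 2, 1 cell held 266 of its 380 counts.

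**Figure D5:**
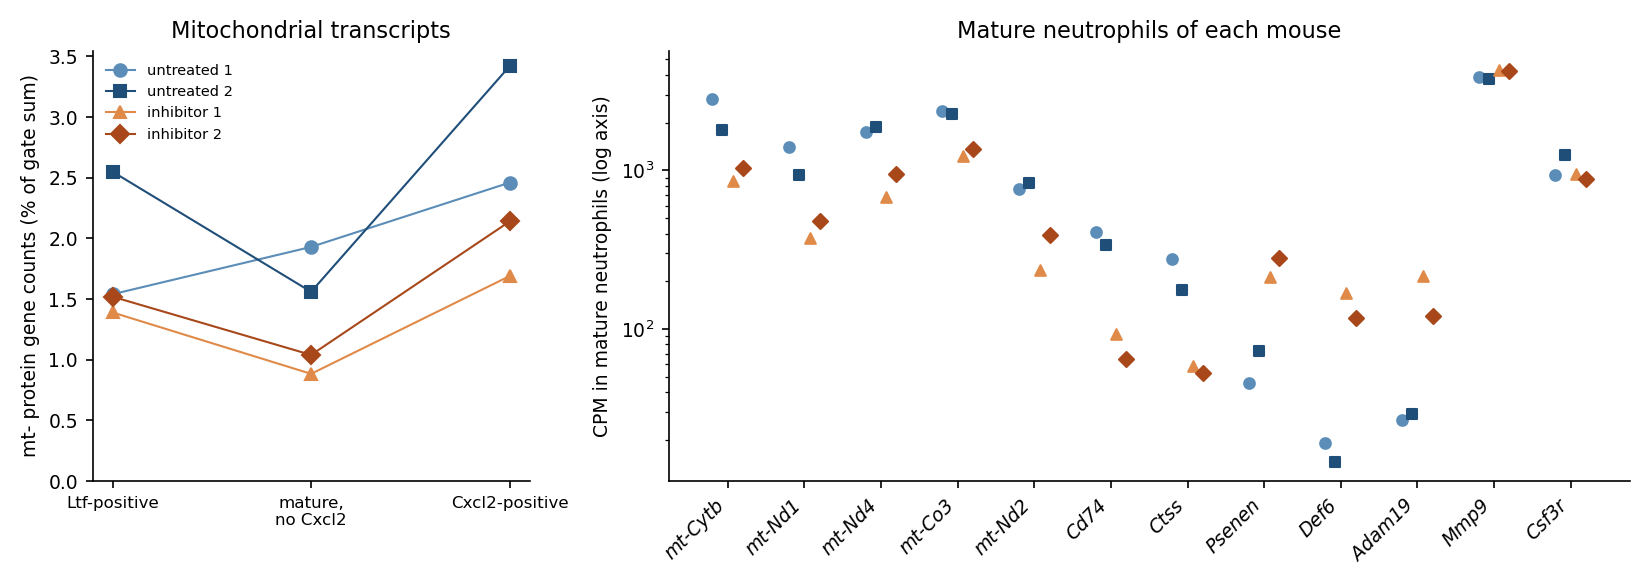
The left panel shows the summed mitochondrial protein gene counts as percent of all counts in the 3 gates, 1 line per mouse, and the right panel shows 12 genes in mature neutrophils of each mouse in CPM (log axis). In mature neutrophils both treated mice (0.884% and 1.04%) lie below both untreated ones (1.93% and 1.56%), while Mmp9 and Csf3r lie close together.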

How the data were processed

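The authors deposited 1 table of whole-number counts per gene and cell, not normalized, with the hashtag in each column name (per the file headers). Per the labels' protocols, cells were pooled on 1 BD Rhapsody run and amplified by TAS-Seq. The genome was GRCm38 per the submitters' processing notes, while the aligner, its settings and strandedness were not given in the sources used here. Counts may be reads or molecules, since no source states which. The 44 genes listed first have no nonzero count under 4, so their 0 may hide low counts.

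The 3943 columns with more than 1 hashtag, doublets of cells from different mice, were not used, and no doublet caller was run. An alternative without the 5% of neutrophils with the most counts removed none of the 223 mature cells, so doublets of 1 mouse among them were not tested. Counts were summed per mouse and gate and tested with edgeR 4.0.16 (R 4.3.3; quasi-likelihood test, TMM, filterByExpr, adjusted p under 0.05 by Benjamini-Hochberg over all genes tested). Comparisons of gates had the mouse as a block and left out the genes of the rule, and the tests of a difference in inhibitor effect left them out too, which the design had not stated. SEs were the log2 fold over the root of F. DESeq2 1.42.0 and other filters, depths and thresholds were alternatives. Scripts were tested on simulated data. Shares were compared by exact permutation over mice (scipy 1.17.1). The members and gene lists were chosen with earlier results of these data known. Named genes were the 20 with the smallest p with the inhibitor, the 12 largest called folds in each direction at a mean of 50 CPM or more in the higher gate, up to 4 members of each list, and the 5 smallest p of each difference in effect. Some other called members of the lists were named after their values were seen. Coordinates are from GENCODE vM21 and promoters from RefSeq. The hashtag library was not analysed here. Some members of the lists are not reported here by name.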

Additional observations from a re-analysis of the deposited data

Results flagged for a closer look

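The effect of the inhibitor differed between mature and other neutrophils for 5 genes. For Cstdc4 the log2 difference in effect was 2.46 against Ltf-positive cells (edgeR, adjusted p = 0.00467) and 2.09 against Cxcl2-positive cells (adjusted p = 0.0129). In Cxcl2-positive cells Cstdc4 stood at 988 and 831 CPM without and 889 and 705 CPM with the inhibitor. The haemoglobin genes differed against Cxcl2-positive cells, with an adjusted p of 4.25e-42 for Hbb-bs, 4.61e-33 for Hba-a2, 6.98e-31 for Hba-a1 and 1.65e-23 for Hbb-bt. Their counts in mature cells came from 1 cell in each treated mouse and none in the untreated mice. Without cells holding haemoglobin, C1qa or C1qc, no gene passed against Cxcl2-positive cells, where Cstdc4 had a log2 difference of 1.86 (adjusted p = 0.0748). Against Ltf-positive cells Cstdc4 had one of 2.34 (adjusted p = 0.0148).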

How the results depend on the processing

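The inhibitor called 0 genes, but 5 with DESeq2, 6 with no filter on low counts, 3 with cells thinned to 3000 counts, 8 with the replicate number as a block and between 4 and 222 with 1 mouse left out. Across genes, the deviations of the 2 mice numbered 1 from their group means had a correlation of 0.014. With 2 mice per group and 12 cells in untreated replicate 2, this cannot decide whether the numbers pair the mice. The labels do not say. Against Ltf-positive cells, higher genes (75) numbered 28 with no filter, 188 with lineage and cycling genes allowed to 0.1% of counts, 49 with Mmp8 at 12 or more, 47 without cells holding haemoglobin, C1qa or C1qc and between 24 and 97 with 1 mouse left out. Lower genes (105) numbered 281 with lineage and cycling genes to 0.1% and between 46 and 70 with 1 mouse left out. Against Cxcl2-positive cells, higher genes (3) numbered 0 with DESeq2, 1 with no filter, 0 without the mouse block, 5 with lineage and cycling genes to 0.1% and between 0 and 2 with 1 mouse left out. Lower genes (45) numbered 15 with DESeq2, 18 with bias-adjusted deviances, 24 at 10% mitochondrial counts, 5 without the mouse block and between 18 and 32 with 1 mouse left out. Differences in inhibitor effect against Cxcl2-positive cells (5) numbered 0 with bias-adjusted deviances, 0 without cells holding haemoglobin, C1qa or C1qc and between 4 and 149 with 1 mouse left out. Against Ltf-positive cells (1) they numbered 0 with DESeq2, 0 with bias-adjusted deviances, 0 thinned, 11 with lineage and cycling genes to 0.1% and between 0 and 99 with 1 mouse left out. The cause of these shifts was not tested. The settings at 0.1%, at 12 counts and without haemoglobin, C1qa or C1qc were chosen after seeing the data, and Mmp8 at 2 or more was identical to the rule.

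Reversed log2 folds were mostly of haemoglobin genes. With the inhibitor and lineage and cycling genes to 0.1% they were −2.78 for Hbb-bs, −2.77 for Hba-a1, −2.84 for Hba-a2 and −2.64 for Hbb-bt, and the differences in effect against Cxcl2-positive cells were −1.24, −1.45, −1.48 and −1.56. Against Cxcl2-positive cells without the mouse block they were 0.40, 0.17, 0.082 and 0.61, and Hbb-bt was also at 0.12 without the cells of most counts and 0.35 with lineage and cycling genes to 0.1%. Cd74 with the inhibitor was 0.64 without cells holding haemoglobin, C1qa or C1qc. Among named genes, 343 alternatives kept the call against Ltf-positive cells and 28 lost it, while 154 kept it and 76 lost it against Cxcl2-positive cells. The share of mature neutrophils kept its direction in all alternatives that were run, but a mouse was left out only for the share of all kept cells. Among neutrophils, inhibitor replicate 2 (3.62%) lay below the untreated mean (4.44%), and untreated replicate 1 (6.43%) lay above the treated mean (4.81%). The direction of that share therefore turns on which mice are included. Depth limits the untreated group most, with 68403 counts in 1 mouse.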
